A study of Mus musculus with 13 samples.

Results

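The growth hormone and IGF axis of the liver was followed through 10 genes, taken from the count table by their gene symbols out of 22048 genes. They were Ghr, Stat5b, Socs2, Cish, Bcl6, Igf1, Igfals, Igfbp1, Igfbp2 and Igfbp3, and all 10 were found and passed the filter on low counts. The data were mRNA read counts from whole livers of 13 mice. The 6 control livers (3 male, 3 female) were not depleted of hepatic stellate cells, pericytes that store vitamin A and wrap the sinusoids. The 4 depleted livers (replicate 3 male, the other 3 female) came from mice whose stellate cells had been removed. The 3 hepatectomised livers (replicates 1 and 2 male, replicate 3 female) were not depleted and were taken 72 h after partial hepatectomy, an operation in which some lobes are cut away and those left behind grow. The strain, alleles and age of the mice, the means and timing of depletion and the extent of the resection are not given in the sources used here. All livers were labelled as separate samples, and p-values measure the spread between these samples only.

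Growth hormone from the pituitary binds its receptor GHR on hepatocytes, and the receptor-bound kinase JAK2 then phosphorylates STAT5A and STAT5B, which enter the nucleus and bind DNA. Their targets include Igf1, the gene of the main circulating growth mediator, Igfals, the gene of the acid-labile subunit that holds IGF1 and IGFBP3 in a long-lived serum complex, and the feedback inhibitors Socs2 and Cish. Growth hormone is released in pulses in male mice and more continuously in females, and liver genes that follow STAT5 activity differ strongly between the sexes. BCL6 is a repressor that binds many of the same sites as STAT5, while IGFBP1 is a hepatocyte protein whose gene is suppressed by insulin and rises with fasting, injury and regrowth.

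Sequences around gene starts were examined for 9 of the 10 genes, with RefSeq promoters on GRCm38.p6 (250 bases before to 50 after each start, 15 windows). Socs2 had no entry among the promoters used and was not searched. The STAT5 motif TTCNNNGAA, whose reverse complement is the same motif, was present in 8.3% of all 32851 such windows and was found in Cish, Igfals and Bcl6. That share counts windows, and Igfals and Bcl6 each had more than 1 window in which to hold the motif. Igfbp1 held the insulin response core CAAAACAA, which was searched on both strands and was present in 2.51% of windows. The stretches are shown because they carry these motifs, in capitals, at or before RefSeq starts of genes whose levels are described below. Matches describe the letters alone and are not evidence of binding.
Cish, chr9:107296659-107296678, plus strand, from the first base at the RefSeq start: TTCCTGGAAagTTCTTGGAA
Bcl6, chr16:23981284-23981533, minus strand: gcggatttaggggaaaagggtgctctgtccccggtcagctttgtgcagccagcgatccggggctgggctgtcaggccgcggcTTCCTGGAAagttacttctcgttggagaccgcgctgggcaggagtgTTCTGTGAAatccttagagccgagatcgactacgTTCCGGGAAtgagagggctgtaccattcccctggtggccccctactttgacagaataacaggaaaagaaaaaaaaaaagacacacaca
Igfals, chr17:24877594-24877655, plus strand: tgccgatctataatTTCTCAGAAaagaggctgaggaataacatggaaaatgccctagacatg
Igfals, chr17:24877981-24878214, plus strand: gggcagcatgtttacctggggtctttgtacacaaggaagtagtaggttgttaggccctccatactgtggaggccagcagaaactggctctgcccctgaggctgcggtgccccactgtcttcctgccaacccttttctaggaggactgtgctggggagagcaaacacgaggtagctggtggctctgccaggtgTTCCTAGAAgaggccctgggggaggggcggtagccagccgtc
Igfbp1, chr11:7197537-7197781, plus strand: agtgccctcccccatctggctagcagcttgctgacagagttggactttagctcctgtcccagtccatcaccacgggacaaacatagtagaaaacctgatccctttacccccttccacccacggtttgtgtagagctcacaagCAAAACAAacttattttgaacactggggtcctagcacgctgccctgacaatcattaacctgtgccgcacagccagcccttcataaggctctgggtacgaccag
In Cish the motif occurred at bases 1 and 12 from the start, and at least 2 copies were present in 0.457% of all windows. The Bcl6 stretch held 3 copies, at -168, -122 and -88, and a window at its other start held 1 copy at -118. The Igfals copies lay at -236 and -58 from different starts, and the Igfbp1 core lay at -108. Gene spans below follow the annotation of the count table, whose gene starts can differ from these. The RefSeq starts of the printed stretches lie inside that span by 633 bases for Cish, 7569 for Bcl6 and 5 for Igfbp1, and before it by 926 and 539 bases for Igfals.

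Depth and markers of the libraries were checked first. Total counts ran from 35360991 to 51008737 per library, so that 3 counts corresponded to between 0.0524 and 0.0900 CPM (counts scaled to a common library total adjusted by TMM factors). The summed level of 12 stellate cell markers was 305 to 801 CPM in controls, 338 to 634 CPM in hepatectomised livers and 15.5 to 74.7 CPM in depleted livers, where depleted replicate 4 was the highest. All 12 markers were called lower in depleted livers than in controls, with a median log2 change of -5.40. In whole tissue, fewer cells of a type and less RNA per cell cannot be told apart. Of 5 hepatocyte markers, 0 were called by edgeR in either comparison with control (1 with depletion and 2 after hepatectomy had an unadjusted p under 0.05, where 43.6% and 24.3% of all genes had). The summed level of 6 monocyte and neutrophil markers was 171 to 316 CPM in depleted livers, 16.8 to 29.9 CPM in hepatectomised livers and 1.2 to 6.55 CPM in controls. Of the 5 that were tested, all were called higher with depletion and 3 after hepatectomy, and of 5 T cell markers tested, 5 and 0, where 18.9% and 6.06% of all genes were called higher. Of the other marker lists, 3 of 6 Kupffer cell, 1 of 6 cholangiocyte and 1 of 5 portal fibroblast and mesothelial genes were called higher with depletion, and 1 of the last group lower, where 18.9% of all genes were called higher and 15% lower. The summed level of 16 acute phase genes, which hepatocytes make under inflammation, ran from 18010 to 26454 CPM in controls, whereas depleted livers had 36861 to 56305 CPM and hepatectomised livers had 72037 to 141894 CPM.

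After stellate cell depletion, the receptor gene Ghr, the complex subunit gene Igfals and the binding protein genes Igfbp2 and Igfbp3 fell, and Igfbp1 rose. By edgeR's quasi-likelihood test with Benjamini-Hochberg adjustment over all genes, 5 of the 10 genes were called, 1 higher and 4 lower, where 33.9% of the 13831 genes tested were called (18.9% higher and 15% lower). The median log2 fold change of the 10 genes was -0.62, against -0.03 over all genes tested. At an unadjusted p under 0.05 there were 6 of the 10, and 43.6% of all genes. CPM ranges of depleted and control livers did not overlap for Ghr, Igfals and Igfbp3, which is 3 of 10 genes, where the ranges of 28.4% of all genes did not overlap. At 72 h after hepatectomy, Igfbp1 rose while Igfals and, at the edge of the threshold, Ghr fell. That was 3 of 10 genes, 1 higher and 2 lower (0 with a replicate block), where 8.42% of all genes were called (6.06% higher and 2.36% lower). The median log2 fold change was -0.17, against -0.02 over all genes. It was -0.41 without hepatectomised replicate 3, -0.28 without hepatectomised replicate 2 or with a replicate block, -0.27 without control replicate 1, and -0.38 under library size scaling, where that of all genes was -0.24. Of the 10 genes, 3 had an unadjusted p under 0.05, where 24.3% of all genes had. Ranges did not overlap for Igfals and Igfbp1, 2 of 10 genes, where those of 13.7% of all genes did not. Both comparisons use the same 6 control livers, so their values are not independent of each other.

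**Figure D1:**
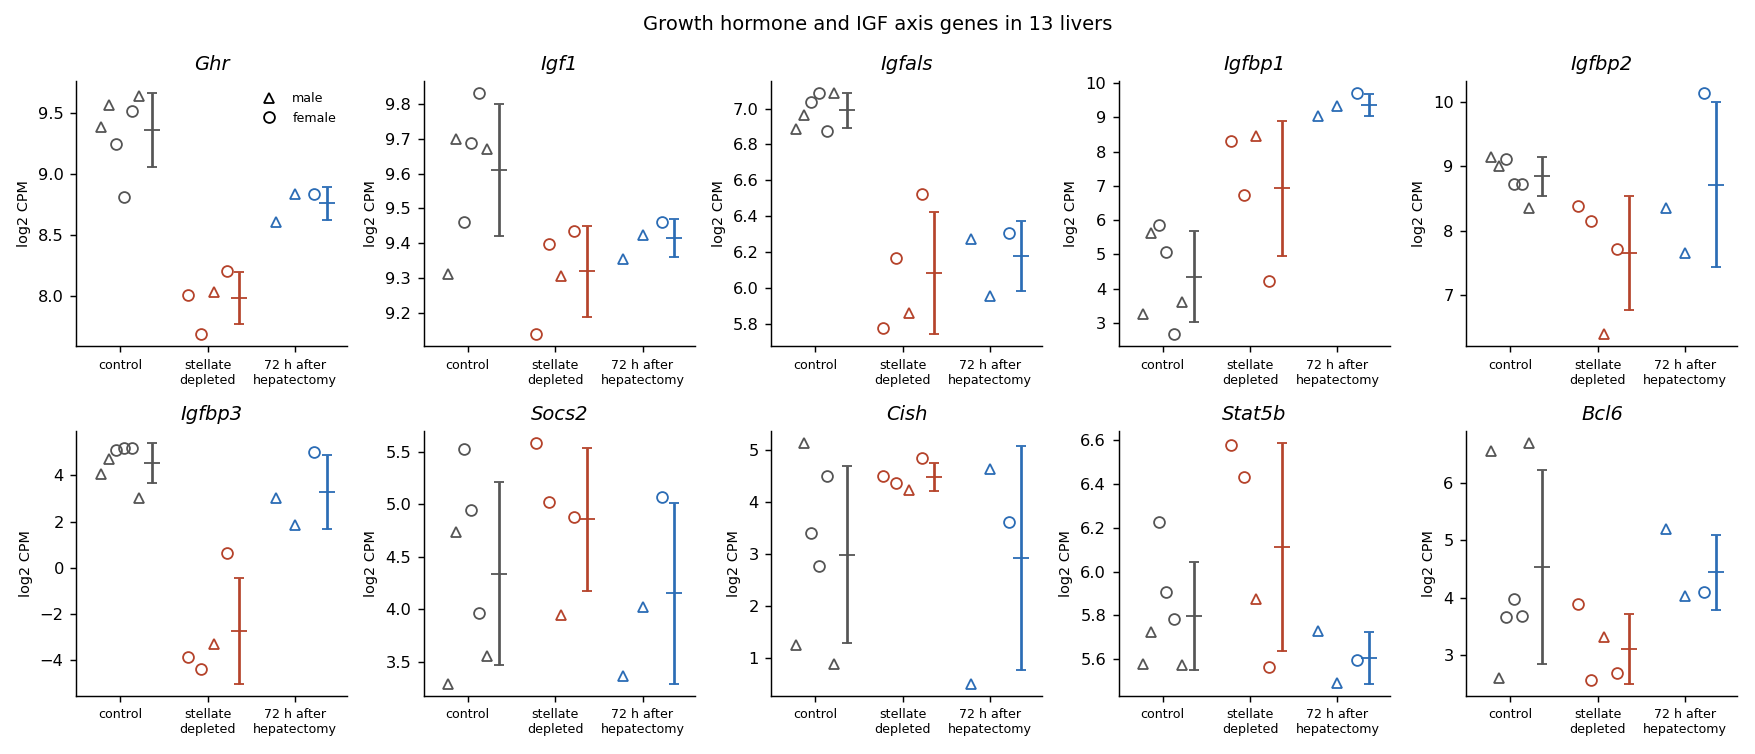
Level of each of the 10 genes in 13 livers, as log2 CPM with a prior count of 2 on the vertical axis and the group on the horizontal axis. Triangles are male and circles female livers, and the bar beside each group is its mean with the SD. Ghr and Igfals lie below all 6 controls in the 4 depleted livers, Igfbp1 lies above all controls in the 3 hepatectomised livers, and Bcl6 and Cish spread widely among controls.

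**Figure D2:**
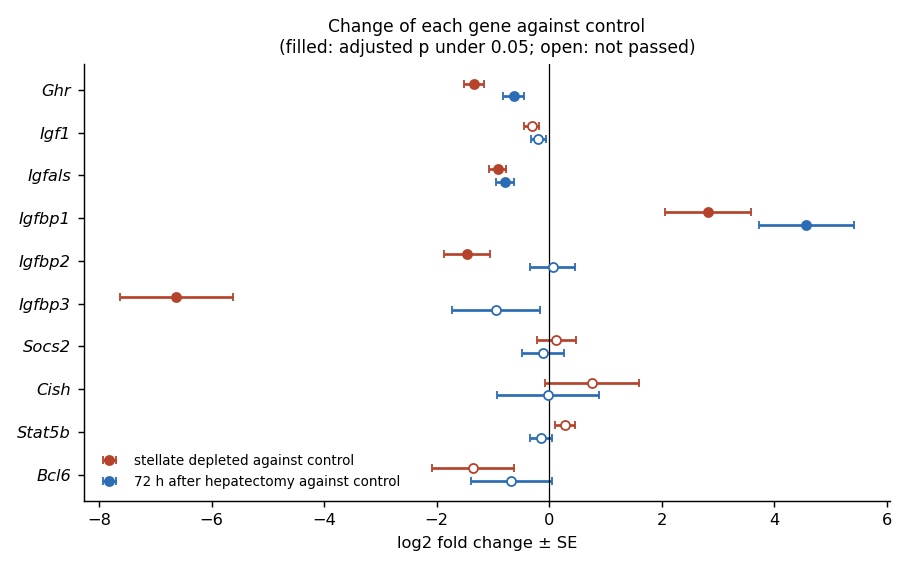
Log2 fold change with its SE for each of the 10 genes, in depleted (red) and hepatectomised (blue) livers against control, from the model with group and sex over 13 livers. Filled points have an adjusted p under 0.05, and Igfbp3 in depleted livers (-6.63) and Igfbp1 in hepatectomised livers (4.57) lie farthest from 0.

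Ghr, chr15:3317760-3583492 (mm10, minus strand), encodes the growth hormone receptor. Its level in control replicates 1 to 6 was 666, 757, 608, 448, 730 and 794 CPM. The 4 depleted livers had 258, 207, 263 and 296 CPM, and every depleted liver was below every control. Hepatectomised replicates 1 to 3 had 390, 458 and 456 CPM, between the other groups, with control replicate 4 inside their range. Ghr fell by 1.34 on the log2 scale with depletion (SE 0.17, edgeR adjusted p = 9.95e-05), a 2.53-fold difference. It fell by 0.63 after hepatectomy (SE 0.18, adjusted p = 0.0497). That second call was lost in 16 of 22 alternative settings, among them 11 of the 13 that left out a single liver (all but control replicate 4 and depleted replicate 4), with adjusted p from 0.00955 to 0.196. Ghr was also lower in depleted than in hepatectomised livers, by a log2 difference of -0.71 (SE 0.20, adjusted p = 0.0214). This call was lost without depleted replicate 3 (-0.66, adjusted p = 0.0942), without hepatectomised replicate 3 (-0.57, adjusted p = 0.133), with a replicate block (-0.68, adjusted p = 0.0748) and under library size scaling (-0.37, adjusted p = 0.196).

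Stat5b, chr11:100780731-100850724 (minus strand), encodes the main signal transducer of the hepatocyte growth hormone receptor. Controls had 47.7, 52.8, 74.8, 59.9, 55.1 and 47.6 CPM. Depleted livers had 95.5, 86.4, 58.7 and 47.3 CPM, so that replicates 1 and 2 were above every control and replicate 4 was below every control. Hepatectomised livers had 53.0, 45.0 and 48.4 CPM, within or just under the control range. The log2 fold change was 0.29 ± 0.18 (SE) with depletion (adjusted p = 0.245) and -0.14 ± 0.20 (SE) after hepatectomy (adjusted p = 0.706). Without depleted replicate 4, the liver with the most stellate marker RNA of the depleted group, the change with depletion was 0.44 ± 0.14 (SE) and was called (adjusted p = 0.0240). The range of adjusted p over 23 alternatives was 0.0240 to 0.641.

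Socs2, chr10:95385362-95417180 (minus strand), and Cish, chr9:107296026-107302784 (plus strand), encode SH2-domain inhibitors that dampen signalling at the receptor and that are themselves induced by STAT5. Socs2 stood at 9.75, 26.7, 46.2, 30.9, 15.6 and 11.7 CPM in controls, at 48.0, 32.5, 15.3 and 29.4 CPM in depleted livers and at 10.3, 16.3 and 33.6 CPM in hepatectomised livers. The 3 ranges overlapped almost throughout. Its log2 fold change was 0.12 ± 0.34 (SE) with depletion (adjusted p = 0.812) and -0.11 ± 0.37 (SE) after hepatectomy (adjusted p = 0.893), and its sign turned under some settings. Cish stood at 2.36, 35.0, 10.5, 6.74, 22.5 and 1.80 CPM in controls. It stood at 22.5, 20.5, 18.7 and 28.7 CPM in depleted livers, a narrow spread (SD 4.38) inside the wide control range (SD 13.1). Hepatectomised livers had 1.38, 24.8 and 12.2 CPM. The log2 fold change of Cish was 0.76 ± 0.84 (SE) with depletion (adjusted p = 0.525) and -0.03 ± 0.91 (SE) after hepatectomy (adjusted p = 0.989). Cish shares 479 and 261 exonic bases with 2 predicted genes on the opposite strand, as Bcl6 does 21 with another, and reads there were assigned by a strand setting that is not given in the sources used here.

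Bcl6, chr16:23965052-23988852 (minus strand), encodes the repressor that shares many binding sites with STAT5. Controls had 94.1, 6.08, 12.7, 15.7, 12.8 and 103 CPM, where the 2 high values were male replicates 1 and 6 and the lowest was male replicate 2. Depleted livers had 14.8, 5.89, 9.92 and 6.44 CPM, near the low end of the control range, with replicate 2 below every control (6.08 CPM at the lowest). Hepatectomised livers had 36.6, 16.2 and 17.1 CPM. The log2 fold change was -1.36 ± 0.73 (SE) with depletion (adjusted p = 0.176) and -0.68 ± 0.72 (SE) after hepatectomy (adjusted p = 0.608). As single livers were left out, the first ran from -1.83 to -0.90 and the second from -1.09 to -0.32. Over all alternatives the second reached -0.0078. The livers with the most Bcl6 had the least Cish: control replicates 1 and 6 and hepatectomised replicate 1 had Cish levels of 2.36, 1.80 and 1.38 CPM, the 3 lowest of all livers. Control replicate 2, also male, had the most Cish of all livers (35.0 CPM) beside 6.08 CPM of Bcl6. In that liver Onecut1, a hepatocyte transcription factor induced by growth hormone, was at 80.6 CPM, the highest control value, where the control median was 19.9 CPM. Onecut1 was picked after its values were seen. Socs2, which STAT5 also induces, was at 26.7 CPM there, below control replicates 3 and 4 (46.2 and 30.9 CPM). The part of growth hormone in these values was not tested.

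**Figure D3:**
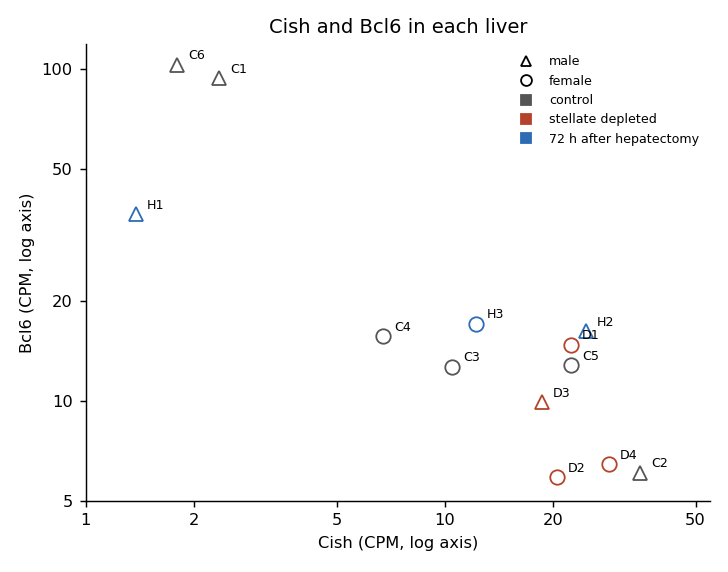
Cish (horizontal, CPM on a log axis) against Bcl6 (vertical, CPM on a log axis) in each of 13 livers, labelled C for control, D for depleted and H for hepatectomised with the replicate number. C1, C6 and H1, all male, sit at the top left, with at least 36.6 CPM of Bcl6 and at most 2.36 CPM of Cish, while the other males C2, D3 and H2 sit with the females.

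Igf1, chr10:87858265-87937042 (plus strand), was among the steadiest of the 10 genes. Controls had 636, 831, 705, 824, 910 and 815 CPM, depleted livers 565, 674, 634 and 692 CPM and hepatectomised livers 656, 688 and 705 CPM. Replicates 1 and 3 of the depleted livers lay below every control, and the others overlapped the lower controls. The log2 fold change was -0.31 ± 0.13 (SE) with depletion (adjusted p = 0.0809) and -0.19 ± 0.14 (SE) after hepatectomy (adjusted p = 0.432). Only DESeq2, of 23 alternatives, called Igf1 lower in depleted livers (-0.30, adjusted p = 0.0458), and the adjusted p ranged up to 0.299.

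Igfals, chr17:24878770-24882008 (plus strand), showed the tightest control values, at 118, 125, 131, 136, 117 and 136 CPM (SD 8.36). Depleted livers had 54.8, 71.8, 58.0 and 92.1 CPM and hepatectomised livers 77.3, 61.9 and 78.9 CPM. All 7 treated livers lay below all 6 controls, and depleted replicate 4 was the nearest to them. Igfals fell by 0.92 on the log2 scale with depletion (SE 0.15, adjusted p = 0.000479) and by 0.79 after hepatectomy (SE 0.16, adjusted p = 0.0115). The call after hepatectomy was lost without hepatectomised replicate 2 (-0.71, adjusted p = 0.0630) and with a replicate block (-0.72, adjusted p = 0.0645). Depleted and hepatectomised livers differed by -0.13 ± 0.17 (SE) on the log2 scale, which did not pass the test (adjusted p = 0.632).

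Igfbp3, chr11:7206086-7213923 (minus strand), encodes the main carrier of IGF1 in serum and is known to be made by non-parenchymal cells of the liver rather than by hepatocytes. Controls had 16.7, 26.5, 34.3, 36.1, 36.8 and 8.10 CPM. Depleted replicates 1 to 4 had 1, 0, 3 and 68 counts, which is 0.0214, 0, 0.0524 and 1.51 CPM, so that 3 of 4 were at or below the level of 3 counts. Hepatectomised livers had 8.02, 3.59 and 32.6 CPM, where replicates 1 and 2, both male, were below every control and replicate 3 was inside the control range. Igfbp3 fell by 6.63 on the log2 scale with depletion (SE 1.00, adjusted p = 0.000351). Without depleted replicate 4 the fitted change was -9.98, which rests on 4 counts in 3 livers and is not a measure of size. After hepatectomy the log2 fold change was -0.95 ± 0.78 (SE), which did not pass the test (adjusted p = 0.495), and depleted livers were lower than hepatectomised livers by -5.68 ± 1.00 (SE, adjusted p = 0.00200). The latter difference ran from -9.05 to -5.08 as single livers were left out, and its size too rests on few counts in depleted livers. Stellate markers moved with this gene: the summed stellate level was lowest in control replicate 6 among controls (305 CPM) and highest in replicate 4 among depleted livers (74.7 CPM), where Igfbp3 too was lowest and highest. The endothelial marker sum of control replicate 6 was likewise the lowest control value (79.2 CPM), as was its Kupffer cell marker sum (62.6 CPM). With depletion, 0 of 6 endothelial markers were called by edgeR, where 33.9% of all genes were. At an unadjusted p under 0.05 there was 1, where 43.6% of all genes had such a p. The part of cell makeup in the Igfbp3 values was not tested.

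Igfbp1, chr11:7197782-7202546 (plus strand), lies next to Igfbp3 on the same chromosome and moved the other way. Controls had 9.64, 48.9, 58.0, 33.5, 6.36 and 12.2 CPM, a spread of several fold among livers of 1 group. Depleted livers had 317, 106, 351 and 18.5 CPM, where replicates 1 to 3 were above every control and replicate 4 lay among them. Hepatectomised livers had 530, 639 and 835 CPM, all above every control and every depleted liver. Igfbp1 rose by 2.82 on the log2 scale with depletion (SE 0.76, adjusted p = 0.0133), a 7.04-fold difference, and by 4.57 after hepatectomy (SE 0.84, adjusted p = 0.00812), a 23.7-fold difference. The difference of -1.75 ± 0.90 (SE) between depleted and hepatectomised livers did not pass the test (adjusted p = 0.184). With depletion the call was lost without depleted replicate 1 (2.42, adjusted p = 0.0520), without depleted replicate 3 (2.17, adjusted p = 0.122), in females alone (2.19, adjusted p = 0.215) and with a replicate block (1.97, adjusted p = 0.164, and 3.75 with adjusted p = 0.0890 after hepatectomy). The acute phase sum was higher in all 7 treated livers than in all controls, with 52025 CPM in depleted replicate 4, and its part in the Igfbp1 values was not tested.

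Igfbp2, chr1:72824503-72852474 (plus strand), encodes the second most abundant IGF binding protein of serum. Controls had 569, 517, 557, 422, 423 and 328 CPM. Depleted livers had 333, 284, 84.1 and 211 CPM, and only replicate 1 reached the control range. Hepatectomised livers had 327, 202 and 1129 CPM, with both males below the lowest control and the female above every other liver. Igfbp2 fell by 1.46 on the log2 scale with depletion (SE 0.41, adjusted p = 0.0155) and differed by 0.06 ± 0.40 (SE) after hepatectomy (adjusted p = 0.946). The fall with depletion missed the threshold without depleted replicate 3, the male with 84.1 CPM (-1.15, adjusted p = 0.0955), without the sex term (-1.04, adjusted p = 0.0951) and in females alone (-0.75, adjusted p = 0.0604).

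Depleted and hepatectomised livers were also set against each other directly. Of the 10 genes, 3 were called, all lower in depleted livers (Ghr, Igfbp2 and Igfbp3), where 23.4% of all genes were called (13.3% higher and 10.1% lower). The log2 difference for Igfbp2 was -1.53 ± 0.44 (SE, adjusted p = 0.0251), but -0.65 (adjusted p = 0.402) without hepatectomised replicate 3, the female with 1129 CPM, -1.26 (adjusted p = 0.109) without depleted replicate 3, and -1.28 (adjusted p = 0.0840) without the sex term. CPM ranges did not overlap for 4 of the 10 genes, Ghr, Igfbp1, Igfbp3 and Bcl6, where those of 34% of all genes did not. Stat5b differed by 0.43 ± 0.22 (SE, adjusted p = 0.189), and was called without depleted replicate 4 (0.57, adjusted p = 0.0234) and under library size scaling (0.74, adjusted p = 0.0180).

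Levels of different genes were compared as CPM per kb of the gene length in the count table. In controls the order was Igfbp2 (mean 254 CPM per kb), Igf1 (79.5), Ghr (73.7), Igfals (60.3), Igfbp1 (18.4), Stat5b (10.2), Igfbp3 (8.44), Bcl6 (6.09), Socs2 (2.46) and Cish (2.05). Among neighbours in that order, only the ranges of Igfbp2 and Igf1 and those of Igfals and Igfbp1 were apart over the 6 controls. The mean of Igfbp1 was at place 5 in controls and at place 1 in depleted livers (130 CPM per kb, against 123 for Igfbp2) and in hepatectomised livers (438 CPM per kb, against 299 for Igfbp2). The ranges of these 2 genes overlapped in both groups: Igfbp1 was above Igfbp2 in 2 of 4 depleted and 2 of 3 hepatectomised livers. Without depleted replicate 3 or replicate 1 the order in depleted livers turned, with means of 96.5 and 149, and of 103.9 and 104.5 CPM per kb. Igfbp3 moved from place 7 to place 10 in depleted livers (0.127 CPM per kb), a mean carried by replicate 4 (0.484), as the others had at most 0.0167. Ghr moved from place 3 to place 5 in depleted livers (28.3 CPM per kb) and to place 4 after hepatectomy (48.0 CPM per kb).

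The makeup of the binding protein transcripts was then described over Igfbp1 to Igfbp7, as each gene's share of their summed CPM per kb. Igfbp4, whose product also holds IGF1 but forms no complex with the acid-labile subunit, took the largest share in controls, from 43.4% to 63.2%. Igfbp1 took 0.656% to 5.03% in controls. In the depleted group its share was 2.28% to 33.8%, and in the hepatectomised group it was 33.0% to 42.7%. Igfbp2 took 29.6% to 40.1% in controls and 6.68% to 23.4% in depleted livers, with no overlap, and 11.1% to 36.8% in hepatectomised livers. Igfbp3 made up 0.432% to 1.98% in controls and at most 0.0911% in depleted livers. The summed level was 584 to 767 CPM per kb in the control, 531 to 770 in the depleted and 938 to 1660 in the hepatectomised group, so that the 3 hepatectomised livers lay above all the others. The level of Igfbp4 itself did not pass the test in either comparison, with log2 fold changes of 0.13 ± 0.14 (SE, adjusted p = 0.487) with depletion and 0.19 ± 0.14 (SE, adjusted p = 0.446) after hepatectomy.

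**Figure D4:**
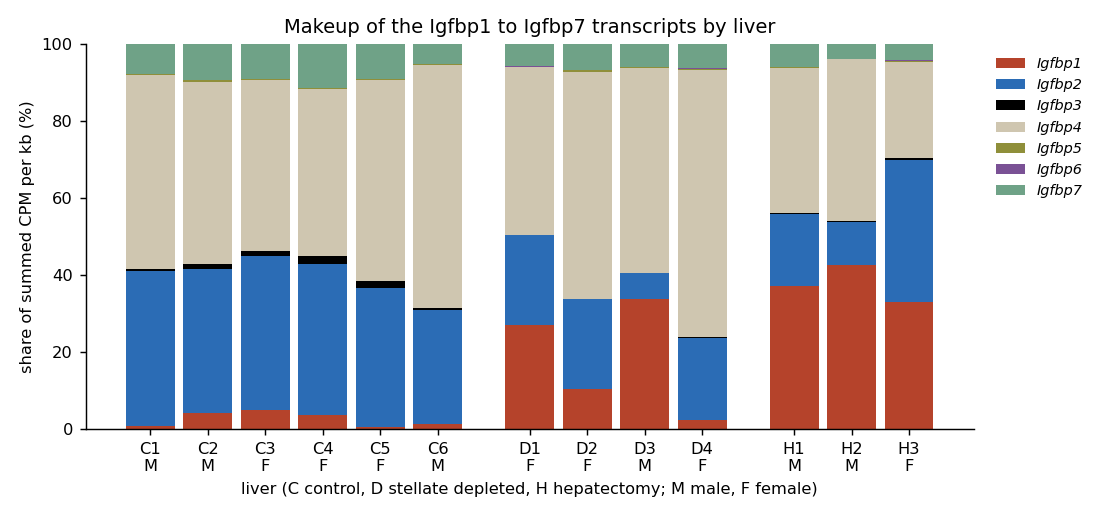
Share of each Igfbp gene in the summed CPM per kb of Igfbp1 to Igfbp7, as a stacked bar for each of 13 livers (C control, D depleted, H hepatectomised; M male, F female). Igfbp1 (red) takes at most 5.03% in controls and 33.0% to 42.7% in hepatectomised livers, and within the depleted group it ranges from 2.28% in D4 to 33.8% in D3.

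Other genes of growth hormone signalling, and some linked to it, were described from a list of 20. It held genes whose products do not act at the receptor itself (Prlr, Cux2, Onecut1, Fgf21 and Klb). Of these, Prlr and Cux2 are also counted in the female-biased list below. The counts here cover all 20 genes. With depletion 8 were called higher and 1 lower, with a median log2 fold change of 0.39 (0.25 without the sex term or by limma-voom), where 18.9% of all genes were called higher and 15% lower. Jak2, the receptor's kinase, was at 23.7 ± 3.01 CPM (SD, n = 6) in controls and 34.8 ± 6.59 CPM (SD, n = 4) in depleted livers and rose by 0.55 ± 0.15 (SE) on the log2 scale (adjusted p = 0.0123). The phosphatase genes Ptpn6 and Ptpn1 rose by 1.78 and 1.45 on the log2 scale (adjusted p = 9.19e-06 and 6.93e-05). Socs1 and Socs3, inhibitors induced by cytokines, rose by 5.84 and 2.35 on the log2 scale (adjusted p = 0.000269 and 0.00119). Ptpn6 is expressed mostly in blood cells, and leukocyte markers were higher in the same livers; their part in these changes was not tested. Sh2b1, an adaptor of JAK2, fell by 0.42 (adjusted p = 0.0172). Its fall was not called without depleted replicate 3, in females alone or under library size scaling. After hepatectomy 4 of the 20 were called higher and 1 lower, with a median of 0.12, where 6.06% and 2.36% of all genes were. That median was 0.01 without hepatectomised replicate 2, 0.06 without control replicate 1, 0.21 without hepatectomised replicate 3, 0.04 without the sex term or with a replicate block, 0.05 with a stricter filter and -0.098 under library size scaling, where 2 were called higher and 2 lower. Among the rises were Socs3 (4.29 ± 0.45 SE, adjusted p = 0.000344), Stat3 (1.17, adjusted p = 0.00303) and Grb2 (0.57, adjusted p = 0.0217), and Sh2b3 fell (-0.72, adjusted p = 0.0136). Without control replicate 1 or control replicate 2 the count was 2 higher and 1 lower, and without hepatectomised replicate 2 it was 2 higher and 0 lower. Jak2 did not pass the test there (-0.29, adjusted p = 0.298), and Stat5a did not in either comparison (0.04 with depletion and 0.17 after hepatectomy).

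Of 14 other genes of the IGF system, 11 passed the filter. With depletion 3 were called lower and 0 higher, where 15% and 18.9% of all genes were. Their median log2 fold change was -0.52, but -0.32 without control replicate 2 or depleted replicate 3, -0.33 without depleted replicate 4, -0.29 without hepatectomised replicate 3 and -0.28 with only those 2 groups in the fit. Irs1, an adaptor of the insulin and IGF1 receptors, stood at 31.1 ± 7.76 CPM (SD, n = 6) in controls and 10.2 ± 3.79 CPM (SD, n = 4) in depleted livers and fell by 1.74 on the log2 scale (adjusted p = 0.00114). Igf2 and Pappa, the gene of a protease that frees IGF from IGFBP4, were also called lower (adjusted p = 0.000242 and 0.0110), at control means of 0.536 and 0.242 CPM, where 3 counts are 0.0524 to 0.0900 CPM. After hepatectomy 1 gene was called, where 8.42% of all genes were. This was Igfbp6 (log2 fold change 2.68 ± 0.64 SE, adjusted p = 0.0230), which was at 0.334 CPM in controls and 2.17 CPM in hepatectomised livers. That count was 0 without control replicate 3, control replicate 5 or hepatectomised replicate 3 and with a replicate block, and without hepatectomised replicate 1 it was 1 lower and 0 higher. DESeq2 and limma-voom called 1 gene higher and 1 lower. The count with depletion was 5 lower and 1 higher without hepatectomised replicate 2. The receptor genes Igf1r and Insr did not pass the test in either comparison (log2 fold changes of 0.94 and -0.29 with depletion, and of -0.49 and -0.22 after hepatectomy).

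Insulin- and FOXO1-regulated hepatocyte genes were counted beside Igfbp1, which belongs to the same class of targets. Of 10 such genes, 1 was called higher and 1 lower with depletion, and 2 higher and 1 lower after hepatectomy, where 33.9% and 8.42% of all genes were called. Pck1, the first committed enzyme of gluconeogenesis, rose by 0.91 and 0.88 on the log2 scale (adjusted p = 0.00907 and 0.0459). Srebf1, a driver of lipid synthesis that insulin induces, fell by 0.85 and 0.98 (adjusted p = 0.0171 and 0.0378). Pdk4, a fasting-induced kinase that blocks pyruvate oxidation, rose after hepatectomy by 2.77 (adjusted p = 0.0201). These counts were small and moved with single livers: with depletion, 1 gene was called without control replicate 5 or with a replicate block, and 0 without depleted replicate 3 or in females alone. After hepatectomy, 0 were called without control replicate 2, without hepatectomised replicate 2 or 3 or with a replicate block, 1 without control replicate 6, depleted replicate 1 or hepatectomised replicate 1, and 5 without depleted replicate 4, by DESeq2, without the sex term or with a stricter filter. Among 16 acute phase genes, 13 were called higher with depletion and 16 after hepatectomy, with 0 lower, where 18.9% and 6.06% of all genes were called higher. Hp rose by 2.33 and 2.64 and Lcn2 by 7.18 and 7.73 on the log2 scale (adjusted p at most 2.69e-05).

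Sex was examined within the controls, 3 males against 3 females. Of the 10 genes, 0 were called by edgeR, DESeq2 or limma-voom, where edgeR called 0.738% of 13005 genes. At an unadjusted p under 0.05 there were 2 of the 10, and 13.2% of all genes. These 2 were Igfbp3 (log2 male against female -1.07 ± 0.38 SE, adjusted p = 0.321) and Stat5b (-0.36 ± 0.15 SE, adjusted p = 0.363). Bcl6 had the largest difference (2.30 ± 0.99 SE, adjusted p = 0.401). When control replicate 2, the male with little Bcl6, was left out, Bcl6 was called higher in males (2.84, adjusted p = 0.000415), and over 12 alternatives its adjusted p ran from 0.000415 to 0.715. Control replicate 2 had the lowest Bcl6 of all controls, so leaving it out raises the difference, and this call is no test of sex. Without that liver Cish was at -2.67 (adjusted p = 0.0878), against -0.02 (adjusted p = 0.996) with it. Whether a gene's response to depletion or hepatectomy differed by sex rests on 1 depleted male and 1 hepatectomised female, and 0 of the 10 genes were called by edgeR in either term, where 0.0217% and 0% of all genes were. In each term 1 of the 10 genes, Igfbp2, had an unadjusted p under 0.05, where 3.47% and 7.23% of all genes had. For Igfbp2 after hepatectomy, the response in males was lower than that in the female by -2.11 ± 0.47 (SE, unadjusted p = 0.000996, adjusted p = 0.574). DESeq2 gave -2.13 with an adjusted p of 0.0203, and over 17 alternatives the adjusted p ran up to 0.929. For depletion, Igfbp2 differed by -1.73 (unadjusted p = 0.00488, adjusted p = 1).

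Downstream of STAT5, 18 male-biased and 22 female-biased liver genes were followed. Of the male-biased genes, 17 could be tested between control males and females, and 6 were called higher in males and 0 lower, while 8 of the 22 female-biased genes were called lower in males, where 0.738% of all genes were called. DESeq2 called 12 and 22 of them and limma-voom 9 and 9. By edgeR 14 and 22 had an unadjusted p under 0.05, where 13.2% of all genes had. With single controls left out, the first count ran from 2 (without replicate 1) to 11 (without replicate 4), with 3 without replicate 5 or 6, and the second was 4 without replicate 6 and 15 without replicate 4. Their mean log2 CPM separated the sexes: the male-biased genes stood at 7.26 to 8.51 in control males and 2.52 to 4.29 in control females, and the female-biased genes at -1.38 to -0.42 and 5.65 to 6.86. The depleted male stood at 5.50 for the male-biased genes, below all 3 control males, and the hepatectomised males at 5.69 and 7.44. Depleted female replicates 1 and 2 stood at 1.70 and 2.04 for these genes, below all control females, and replicate 4 at 4.39, above them. The hepatectomised female stood at 3.52. The depleted females stood at 5.01 to 5.71 for the female-biased genes, near or below the lowest control female, and the hepatectomised female at 5.92. With depletion 4 male-biased genes were called lower and 0 higher, where 15% and 18.9% of all genes were, among them Elovl3 (-4.14, adjusted p = 0.00315), a fatty acid elongase, and Hsd3b5 (-6.04, adjusted p = 0.00761), a steroid dehydrogenase whose reads may be shared with near-identical copies. Without depleted replicate 4, 9 male-biased genes were called lower, and without depleted replicate 3, the only male, 2 were. With a replicate block 7 were called lower, by limma-voom 7 lower and 1 higher, and in females alone 1 lower. Their median log2 fold change was -0.58, but -1.76 and -0.15 without these livers, -2.38 without the sex term, -1.21 with only those 2 groups in the fit, -1.08 by limma-voom, -1.19 with a stricter filter and -0.06 in females alone. Among female-biased genes, 6 were called lower and 1 higher with depletion, among them Hamp2 (-3.72, adjusted p = 0.00451), a hepcidin gene, and Sult3a1 (-2.68, adjusted p = 0.00602), a sulfotransferase, while Tox rose (0.87, adjusted p = 0.0408). That call was lost without control replicate 1, 2 or 4, without depleted replicate 1, 2 or 3, in females alone and without the sex term, where 0 female-biased genes were called at all. DESeq2 called 8 lower and 3 higher, and limma-voom 9 and 2. The median of these genes was -1.36, but -0.39 without control replicate 4, -0.72 by DESeq2, -0.71 without the sex term and -0.35 with a stricter filter. After hepatectomy 0 genes of either list were called by edgeR, where 8.42% of all genes were. There, 1 of 18 male-biased and 5 of 22 female-biased genes had an unadjusted p under 0.05, where 24.3% of all genes had. DESeq2 called 1 male-biased and 0 female-biased genes lower there, and limma-voom 1 of each. By edgeR, 1 male-biased gene was called higher without control replicate 6 and 1 lower without depleted replicate 4, and 1 female-biased gene was called lower without depleted replicate 3. The medians were -0.84 and -0.62 and moved with single livers. The first was -1.49 without hepatectomised replicate 2, -0.48 without hepatectomised replicate 1, -0.51 without control replicate 6 and -0.22 with a replicate block. The second was 0.03 without hepatectomised replicate 3, -0.10 without control replicate 4 or by DESeq2, -0.28 without control replicate 3, 0.17 with a stricter filter and -1.51 without the sex term.

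**Figure D5:**
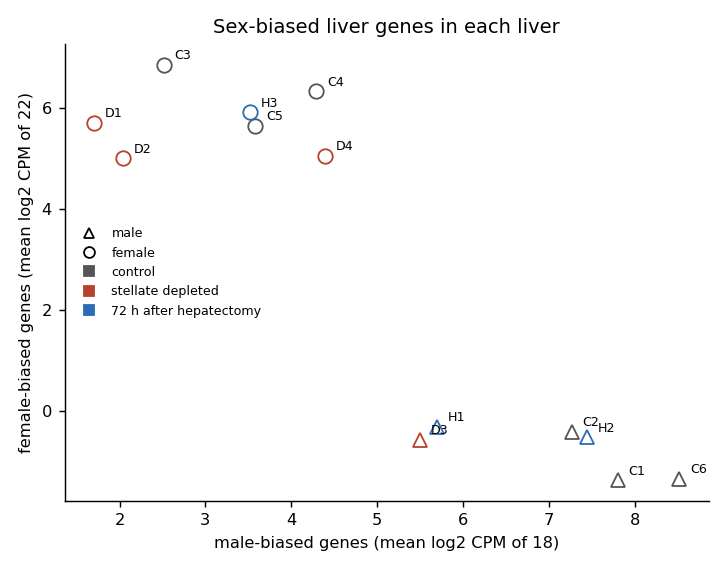
Mean log2 CPM of 18 male-biased genes (horizontal) against that of 22 female-biased genes (vertical) in each of 13 livers, labelled C for control, D for depleted and H for hepatectomised with the replicate number. Males (triangles) lie at the lower right and females (circles) at the upper left. The depleted male D3 (5.50) and the hepatectomised male H1 (5.69) lie left of the control males, which begin at 7.26.

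Genes with the most similar profile were sought for 6 members, by the mean absolute difference in log2 CPM over the 13 livers after each gene's control mean was subtracted. For Igfbp3 these were Bmp5 (0.57), Colec11 (0.62) and Colec10 (0.66), of which both Colec genes are on the stellate marker list. For Igfbp1 they were Orm2 (0.88), Itga2 (1.00) and Depdc1b (1.04), of which Orm2 is on the acute phase list. Igfals was most like Hibadh (0.16), Faap100 (0.16) and Magix (0.17), and Igf1 was most like Slc35a1 (0.10), Aggf1 (0.10) and Ythdf3 (0.10). Socs2 was nearest to Miga1 (0.35), Fut8 (0.37) and Mansc1 (0.38). Cish was farther from its nearest genes Ccdc114 (0.75), Psd4 (0.77) and Gm5141 (0.78). The livers share their libraries and groups, so these differences are descriptions of the 13 livers.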

How the data were processed

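The authors deposited 1 table of raw read counts per gene for 13 libraries, with exon coordinates and a gene length, per the file headers. Per the labels' protocols, RNA was taken up in TRIzol and made into stranded TruSeq mRNA libraries, which were run over 2 lanes. The submitters' processing notes name STAR 2.7.1a, SAMtools 1.15.1, featureCounts 1.6.4 and mm10, with no role or order. The annotation, the strand setting and the treatment of multi-mapped reads are not given in the sources used here. Of 22048 gene IDs, 21818 matched GENCODE release M21, which gave the symbols, and 4819 genes had 0 counts in every library.

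Counts were tested with edgeR 4.0.16 in R 4.3.3 (filterByExpr, TMM scaling by the trimmed mean of M values, glmQLFit with robust estimation and glmQLFTest), with group and sex over all 13 libraries, 13831 genes and a biological coefficient of variation of 31.4%. Sexes were compared on the 6 controls alone (13005 genes). Tests were two-sided, with Benjamini-Hochberg adjustment over all genes and a threshold of 0.05, and "called" means past it. The SE is the log2 fold change divided by the square root of F. CPM values are TMM-scaled, log2 CPM uses a prior count of 2, and a range that did not overlap is one of CPM. Alternatives used DESeq2 1.42.0, limma-voom (limma 3.58.1), other scalings, filters and libraries, and the replicate number as a block. The test was checked on simulated counts.

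The 10 genes and the 6 pathway and 8 marker lists were chosen with earlier results of these data known. All 10 genes are named, and from each pathway list at most 4 genes per comparison with control, those of smallest adjusted p among the called, split over both directions. The values of 1 gene that this rule names are not reported here. Jak2, Socs1, Socs3 with depletion, Stat5a, Onecut1, Igfbp4, Igf1r and Insr were named in addition, after their values were seen. Genes of similar profile were ranked among protein-coding genes that passed the filter and whose profile varied by an SD at least 0.5 times that of the member. Reads carry no molecular identifiers, so the level of 3 counts covers counting error only. Pairs of libraries of 1 group differed by a median chi-square per gene of at least 4.60, and all 13 were counted as separate samples. The labels name no batch, and batch and group cannot be told apart. Labels of sex matched 4 Y-linked genes, with 4051 to 7741 counts in males and 0 to 73 in females.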

Additional observations from a re-analysis of the deposited data

Results flagged for a closer look

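Of 20 sets of values tested (the 10 genes in control and in depleted livers), 1 held a liver far from the others, where about 1 in 20 is given by chance. Igfbp3 was at 1.51 CPM (68 counts) in depleted replicate 4 and at no more than 3 counts in the other 3 depleted livers. That liver also had the highest stellate marker sum of its group, 74.7 CPM against 15.5 to 19.1 CPM. Labelled female, it carried 73 counts of 4 Y-linked genes, 1.33% of the mean male level, against 0 and 1 counts in the other depleted females. The Igfbp3 level of depleted replicate 4 was 18.7% of the lowest control value. The part of either measure in the Igfbp3 value was not tested.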

How the results depend on the processing

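Over 670 recomputed fold changes of the 10 genes, called or not, 611 kept their direction and their side of the threshold, and 22 changed sign. Of the others, 33 lost a call and 4 gained one. With depletion 5 of 10 genes were called, 3 in females alone, and 3 to 6 as single livers were left out, with the count of 3 without depleted replicate 3. Of all genes, 4692 were called there, 2695 in females alone and 2960 without depleted replicate 3. After hepatectomy 3 were called, 0 with the replicate block and 1 to 3 as single livers were left out, with the count of 1 without hepatectomised replicate 2. Of all genes, 1164 were called there, 632 with the block and 483 without hepatectomised replicate 2. Between depleted and hepatectomised livers 3 were called, 1 to 4 as livers were left out, with the count of 1 without depleted replicate 3 or hepatectomised replicate 3. Between male and female controls 0 were called, and 0 to 1 as livers were left out, the 1 being Bcl6 without control replicate 2. For group by sex 0 were called, and 1 (Igfbp2) by DESeq2.

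The values that changed sign were those of genes not called. Socs2 with depletion was -0.12 with the replicate block and -0.078 to 0.32 as livers were left out. After hepatectomy, Igfbp2 was -0.15 under library size scaling, -0.023 by limma-voom, -0.25 with the replicate block and -0.60 to 0.42 as livers were left out. Socs2 was 0.034 by limma-voom and -0.25 to 0.22, Cish was 0.031 by limma-voom and -1.18 to 1.26, and Stat5b was -0.26 to 0.0038 as livers were left out. Library size scaling put Igf1 at 0.20 and Igfals at 0.20 between depleted and hepatectomised livers. It moved the median of all genes to 0.08 with depletion, -0.24 after hepatectomy and 0.27 between those groups. The causes were not tested.

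Nothing in the labels ties same-numbered livers together, and they were taken to share only a number. The 3 same-numbered pairs of control and hepatectomised livers are each of 1 sex, and their deviations from the group means correlated, across genes, at 0.107 to 0.523. With sex removed, as in the model, the deviations correlated, across genes, at -0.10 to 0.42 (4 pairs of control and depleted), -0.19 to 0.08 (3 pairs of control and hepatectomised) and 0.04 to 0.27 (3 pairs of depleted and hepatectomised). The replicate block called 4 genes with depletion, 0 after hepatectomy and 2 between those groups. Counts over the pathway lists under the same alternatives were added after the data were seen.

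Depth limited Igfbp3 in 3 depleted livers, Pappa and Igf2, which lay near or below 3 counts there. It also limited Hsd3b5 and Elovl3, whose lowest values in depleted females were 0.0448 and 0.0428 CPM. The sex terms rest on 1 depleted male and 1 hepatectomised female.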
